A study of Mus musculus with 17 samples.

Results

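The response to the last injection of pentylenetetrazole (PTZ) was measured in the hippocampus of kindled CBP-ifKO mice, in 6 of the 17 RNA-seq libraries of the series. The libraries were taken by their labels: 3 carry the label CBP-ifKO PTZ45 and 3 the label CBP-ifKO PTZ0, and all 6 carry lane 5, so that lane does not differ between the groups. Every mouse had the C57BL/6 background, an age of 3 to 6 months, a floxed Crebbp gene and the tamoxifen-inducible recombinase creERT2 under a Camk2a promoter, and had received tamoxifen. All had been given the kindling schedule of 45 mg/kg PTZ on alternate days, and kindled refers here to this schedule, since the labels give no seizure stage. A week later PTZ0 mice received saline and PTZ45 mice received 45 mg/kg PTZ, and hippocampi were collected 45 min after that injection. The Camk2a promoter drives recombination in forebrain excitatory neurons, where CBP is truncated and loses its acetyltransferase domain, so that interneurons, glia and vessels of the same tissue keep intact CBP. The comparison closest to it used the 2 Control PTZ45 and 3 Control PTZ0 libraries of kindled littermates, which the study describes as lacking creERT2 and given tamoxifen, whereas a label of these samples names that transgene, and which differ in lane between groups (lane 4 for PTZ45, lane 3 for PTZ0). By the sample list of the study, each library of this experiment came from a single male mouse.

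The 6 libraries held 9883310 to 14935438 counts. Normalized counts below are counts divided by size factors computed over all 17 libraries. The labels were first checked against Crebbp, which encodes CBP. Crebbp held 1061 to 1278 normalized counts in the 6 CBP-ifKO libraries and 2039 to 2429 in the 5 libraries of kindled controls. Reads of Esr1, the estrogen receptor gene from which the ligand-binding part of creERT2 derives, held 710 to 935 normalized counts in CBP-ifKO and 41 to 77.8 in those controls. Markers of choroid plexus, the secretory epithelium of the ventricles, set some libraries apart. The summed level of 8 choroid plexus markers was 544.2, 423.9 and 33280 normalized counts in PTZ0 replicates 1 to 3 and 564.6, 30650 and 527 in PTZ45 replicates 1 to 3. Ttr, the transthyretin gene that is the main transcript of this epithelium, made up most of the high sums, with 30200 and 27700 normalized counts in the high library of each group and 63.01 to 204 in the other libraries. These markers were thus high in a single library of each group, and counts of called genes are also given without these libraries.

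Immediate-early genes are transcribed within minutes of a calcium influx, from promoters that are already poised and without new protein synthesis. CREB, SRF and MEF2 family factors are activated by neuronal kinases, and CBP and its paralog p300 are recruited as coactivators that acetylate histones at promoters and enhancers. The first products are mostly transcription factors (FOS, EGR and NR4A families, NPAS4) and proteins that end the signal (phosphatases of the DUSP family), followed hours later by neuropeptides, growth factors and synaptic proteins. PTZ blocks GABA-A receptors and is a standard way to drive this program through seizure activity.

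PTZ raised a small set of genes in CBP-ifKO hippocampus, led by immediate-early genes. Of 26374 genes tested with DESeq2, 16 were higher in PTZ45 (0.0607% of those tested) and 7 were lower (0.0265%) at an adjusted p under 0.05. The 16 higher genes were Fos, Npas4, Gm47088, Egr2, Ccn1, Gm47075, Dusp1, Apold1, Btg2, C630044B11Rik, Nr4a1, Egr1, Mir6236, Dusp6, Nr4a2 and mt-Rnr1, in order of log2 fold change from 4.03 to 0.28. The 7 lower genes were Gm15920, Gm45104, Pcsk1n, Rplp1, Tnrc18, Apc2 and Abhd8, from -3.57 to -0.46. At least a 2-fold change was reached by 11 of the higher genes and by 2 of the lower genes. The median log2 fold change was 1.43 for the higher and -0.55 for the lower genes, and 0.00087 over all genes tested. In each of the 23 genes the 3 PTZ45 libraries lay apart from the 3 PTZ0 libraries. The same libraries chose these genes, so this adds no separate support. Over all genes tested, PTZ45 lay wholly above PTZ0 in 4.66% and wholly below in 5.6%. At an unadjusted p under 0.05 the balance was the other way, with 191 genes higher (0.724%) and 368 lower (1.4%). Shares over all genes tested include genes of low counts, and no share matched in expression was computed. The number of higher genes was 10 without PTZ0 replicate 3 and 9 without PTZ45 replicate 2, and the number of lower genes was 3 without PTZ0 replicate 1, 3 without PTZ45 replicate 1 and 12 without PTZ0 replicate 3.

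Fos, which encodes a subunit of the AP-1 transcription factor, showed the largest increase (ENSMUSG00000021250, chr12:85473890-85477273 of GRCm38). Its normalized counts were 13.4, 13.4 and 15.8 in PTZ0 and 163, 250 and 288 in PTZ45. Every PTZ45 library stood more than 10 times above every PTZ0 library. The log2 fold change was 4.03 ± 0.30 (SE, n = 3 and 3, adjusted p = 1.03e-36), or 16.3-fold. In CBP-ifKO mice that were never kindled and received saline, sequenced in lane 4, Fos held 26.9, 33.2 and 34. These values lie above every PTZ0 library and below every PTZ45 library, so the fold depends on the low PTZ0 level. Fosb, the paralog whose splice form ΔFosB accumulates with repeated seizures, held 23.1, 23.9 and 21.3 in PTZ0 and 41, 53 and 82.5 in PTZ45. These groups did not overlap, but the log2 fold change of 1.37 ± 0.35 missed the threshold (adjusted p = 0.0947), and passed narrowly with the GC correction (0.0494) and in 1 fit of all 17 libraries (0.0496). Junb, another AP-1 subunit, held 105, 131 and 94.6 in PTZ0 against 174, 177 and 178 in PTZ45, with a log2 fold change of 0.68 ± 0.18 (adjusted p = 0.151). Junb also lay apart between groups without passing, and passed with the GC correction (0.002) and in 1 fit of all 17 libraries (0.0386).

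Npas4, a neuron-specific factor that responds to calcium and organizes inhibitory synapses, held 42.6, 11.5 and 30 normalized counts in PTZ0 and 109, 154 and 212 in PTZ45 (chr19:4984355-4990316). The PTZ0 libraries differed among themselves more than those of Fos did. The log2 fold change was 2.51 ± 0.55 (adjusted p = 0.0105). Without PTZ0 replicate 3 or PTZ45 replicate 2, the libraries high in choroid plexus markers, the adjusted p was 0.275 and 0.283.

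Of the EGR zinc-finger factors, Egr1 and Egr2 passed and Egr3 and Egr4 did not. Egr1 held 323, 237 and 274 normalized counts in PTZ0 and 527, 540 and 571 in PTZ45, and rose by 0.98 ± 0.13 on the log2 scale (adjusted p = 7.55e-11). Egr2 was present at 8.52, 12.4 and 7.1 in PTZ0 and at 23.1, 37 and 49.5 in PTZ45, a log2 fold change of 1.97 ± 0.48 that passed narrowly (adjusted p = 0.0488). The Egr2 call was lost without PTZ0 replicate 1 (adjusted p = 0.473), PTZ0 replicate 2 (0.113), PTZ0 replicate 3 (0.819), PTZ45 replicate 2 (0.465) or PTZ45 replicate 3 (1). Egr3 and Egr4 overlapped between groups. Egr3 held 403, 272 and 345 in PTZ0 and 417, 381 and 328 in PTZ45 (log2 fold change 0.15 ± 0.15), and Egr4 held 23.1, 24.8 and 14.2 against 28.4, 22 and 46 (0.64 ± 0.43).

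Among the NR4A orphan nuclear receptors, Nr4a1 held 184, 192 and 151 normalized counts in PTZ0 and 326, 406 and 485 in PTZ45 (chr15:101254269-101274795). It rose by 1.21 ± 0.16 on the log2 scale (adjusted p = 1.97e-10), or 2.31-fold. Nr4a2 held 304, 341 and 304 in PTZ0 against 474, 443 and 435 in PTZ45, a smaller log2 fold change of 0.51 ± 0.12 (adjusted p = 0.0208). The Nr4a2 call was lost without PTZ0 replicate 1 (adjusted p = 0.457), PTZ0 replicate 3 (0.505), PTZ45 replicate 1 (0.606), PTZ45 replicate 2 (0.225) or PTZ45 replicate 3 (0.14). Nr4a3 overlapped between groups, with 856, 796 and 792 in PTZ0 and 877, 900 and 725 in PTZ45 (0.04 ± 0.10).

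Over the list of 31 immediate-early transcription factors tested, 6 were called higher and 0 lower, and the median log2 fold change was 0.39 against 0.00087 for all genes. A log2 fold change above 0 was measured for 29 of the 31, and in 11 every PTZ45 library lay above every PTZ0 library. The 6 called are Fos, Npas4, Egr1, Egr2, Nr4a1 and Nr4a2, and the other 25 did not pass. Over all genes tested 0.0607% were called higher and 4.66% lay wholly above. Without the libraries high in choroid plexus markers 3 of the list were called higher.

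**Figure D1:**
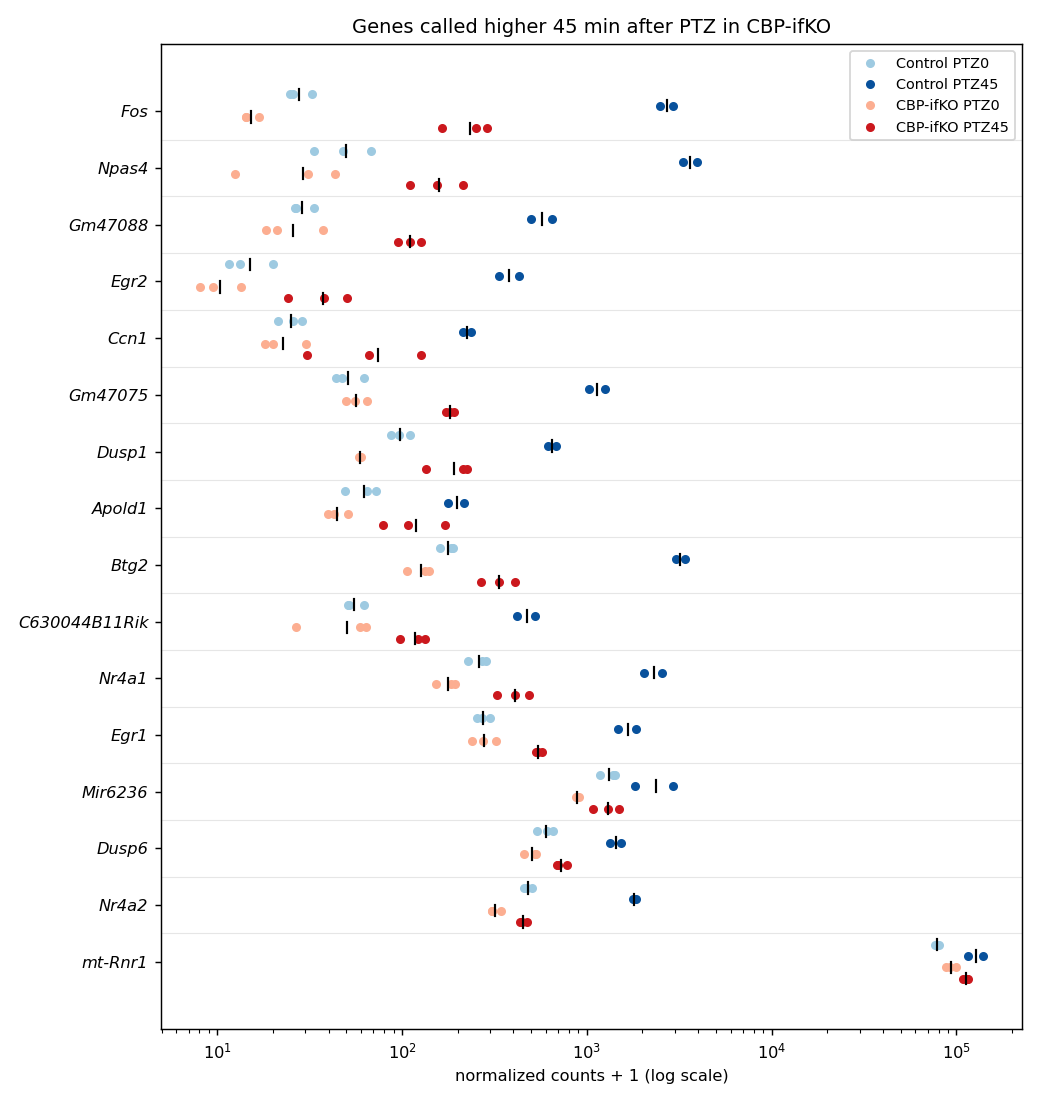
Normalized counts plus 1 of the 16 genes called higher in CBP-ifKO PTZ45, on a log scale, with a point for each library and a tick for each group mean, beside the Control PTZ0 and PTZ45 libraries. For Fos the CBP-ifKO PTZ45 libraries hold 163 to 288 normalized counts, above the PTZ0 libraries with 13.4 to 15.8 and below the Control PTZ45 libraries with 2483 and 2915.

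The proximal promoters of 6 of the higher genes are shown, those with the lowest adjusted p among the 8 that hold a cAMP response element (CRE, the CREB site TGACGTCA) or its half-site (TGACG or CGTCA, either orientation, so that each full CRE also counts as 2 overlapping half-sites). Each line gives the 250 bases before the RefSeq transcription start in GRCm38.p6, 5′ to 3′ on the strand of the gene, with the full and half-sites in capitals.
Fos: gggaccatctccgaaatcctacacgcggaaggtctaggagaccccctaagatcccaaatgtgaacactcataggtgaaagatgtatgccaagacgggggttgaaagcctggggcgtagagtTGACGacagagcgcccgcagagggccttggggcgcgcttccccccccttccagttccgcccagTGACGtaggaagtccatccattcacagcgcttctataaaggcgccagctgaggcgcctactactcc
Btg2: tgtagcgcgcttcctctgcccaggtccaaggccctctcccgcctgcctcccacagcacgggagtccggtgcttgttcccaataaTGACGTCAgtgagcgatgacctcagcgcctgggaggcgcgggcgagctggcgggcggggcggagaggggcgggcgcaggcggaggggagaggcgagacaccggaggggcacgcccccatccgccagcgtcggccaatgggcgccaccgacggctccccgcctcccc
Dusp1: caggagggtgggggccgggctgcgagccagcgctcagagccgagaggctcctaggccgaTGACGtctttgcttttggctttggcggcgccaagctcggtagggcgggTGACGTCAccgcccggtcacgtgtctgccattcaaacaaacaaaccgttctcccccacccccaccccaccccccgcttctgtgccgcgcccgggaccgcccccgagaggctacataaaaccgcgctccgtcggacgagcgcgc
Nr4a1: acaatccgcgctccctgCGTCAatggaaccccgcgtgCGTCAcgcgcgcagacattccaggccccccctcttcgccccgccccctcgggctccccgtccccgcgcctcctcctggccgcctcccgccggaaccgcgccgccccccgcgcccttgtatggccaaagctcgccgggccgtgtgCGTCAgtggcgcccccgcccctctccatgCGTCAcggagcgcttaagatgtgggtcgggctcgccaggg
Npas4: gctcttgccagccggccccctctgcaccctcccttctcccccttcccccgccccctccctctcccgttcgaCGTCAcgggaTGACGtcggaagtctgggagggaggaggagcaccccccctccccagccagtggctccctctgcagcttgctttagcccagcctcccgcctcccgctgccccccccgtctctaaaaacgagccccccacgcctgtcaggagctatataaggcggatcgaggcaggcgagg
Apold1: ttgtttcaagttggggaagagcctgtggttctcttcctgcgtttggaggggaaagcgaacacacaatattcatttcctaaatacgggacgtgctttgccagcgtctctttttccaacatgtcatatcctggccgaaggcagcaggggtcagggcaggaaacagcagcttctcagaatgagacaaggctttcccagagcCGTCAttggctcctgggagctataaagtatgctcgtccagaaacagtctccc

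These windows are chr12:85473640-85473889 (plus strand) for Fos, chr1:134079156-134079405 (minus strand) for Btg2, chr17:26508473-26508722 (minus strand) for Dusp1, chr15:101266596-101266845 (plus strand) for Nr4a1, chr19:4989972-4990221 (minus strand) for Npas4 and chr6:134981751-134982000 (plus strand) for Apold1. The RefSeq starts of Dusp1 and Nr4a1 lie inside the longer gene models of GENCODE. Of the 16 higher genes, 10 had a promoter in the RefSeq table, which spans 250 bases before to 50 after each start. A full CRE was present in 2 of these 10, Btg2 (from position -166) and Dusp1 (from -143), against 1.79% of 32817 promoters of the same length. A half-site was present in 8 of the 10, the genes shown and Nr4a2 and Ccn1, against 20.8% of all promoters. Nr4a1 held half-sites from -233, -213, -69 and -40, and Fos from -129 and -66. The CArG box, to which SRF binds, was found in 0 of the 10 and in 1.63% of all promoters, searched on both strands. Sites farther from the start were not searched. Egr1 was among the higher genes without a promoter in the RefSeq table. A letter match describes the sequence of this window and no binding was measured here.

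Of 16 genes tested whose products end or limit kinase signalling, 2 rose, Dusp1 and Dusp6, and 0 fell, against 0.0607% and 0.0265% of all genes tested. Without the libraries high in choroid plexus markers 1 was called, Dusp1. The median log2 fold change of the list was 0.19, and 13 of the 16 lay above 0. Dusp1, a nuclear phosphatase of MAP kinases, held 57.2, 59.2 and 58.4 normalized counts in PTZ0 and 135, 213 and 223 in PTZ45 (chr17:26505590-26562128). The PTZ0 libraries were within a few counts of each other and every PTZ45 library was more than 2-fold above them. Dusp1 rose by 1.70 ± 0.22 on the log2 scale (adjusted p = 1.85e-10), or 3.26-fold. Exons of Ergic1 overlap Dusp1 on the other strand. Dusp6, the cytoplasmic phosphatase of ERK, held 522, 532 and 454 against 694, 687 and 782, a log2 fold change of 0.52 ± 0.11 (adjusted p = 0.00216). Its call was lost without PTZ0 replicate 3 (adjusted p = 0.247) or PTZ45 replicate 3 (0.148). Among the members that did not pass, Spry2, an inhibitor of receptor tyrosine kinase signalling, held 296, 293 and 251 against 343, 331 and 368 (0.31 ± 0.13, adjusted p = 1), and Rgs2, which shortens Gq signalling, held 332, 346 and 366 against 391, 392 and 422 (0.20 ± 0.12, adjusted p = 1).

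Effector genes of the immediate-early program were higher in 3 of 24 tested (Btg2, Ccn1 and Apold1) and lower in 0, with all 24 log2 fold changes above 0 and a median of 0.27, against 0.0607% of all genes called higher. Without the libraries high in choroid plexus markers 1 was called, Btg2. Btg2, an antiproliferative factor that recruits mRNA deadenylases, held 106, 133 and 139 normalized counts in PTZ0 and 267, 333 and 407 in PTZ45 (chr1:134075170-134079120). It rose by 1.40 ± 0.18 on the log2 scale (adjusted p = 1.16e-11), or 2.65-fold, and its groups were far apart. Arc, whose product removes AMPA receptors from synapses, held 723, 561 and 500 in PTZ0 and 843, 929 and 1289 in PTZ45. Its PTZ45 libraries all lay above PTZ0, but the log2 fold change of 0.78 ± 0.25 did not pass (adjusted p = 0.671). It passed without PTZ0 replicate 1 (adjusted p = 1.87e-06), PTZ45 replicate 1 (3.13e-05) or PTZ45 replicate 3 (0.044) and with the GC correction (5.14e-08). Ptgs2, the inducible cyclooxygenase, held 329, 349 and 334 against 429, 422 and 454 (0.37 ± 0.12, adjusted p = 0.646), again with no overlap and no call. Gadd45g, a stress sensor of the GADD45 family, held 49.9, 46.8 and 51.2 against 38.9, 67 and 43.6, with a log2 fold change of 0.02 ± 0.30. Arl4d, a small GTPase, held 45, 56.3 and 60.7 against 65.2, 57 and 66 (0.20 ± 0.27). For Gadd45g and Arl4d the groups overlapped, and the 95% intervals of their log2 fold changes ran from -0.57 to 0.61 and from -0.32 to 0.73.

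Among the higher genes were 3 gene models of the TEC class (to be experimentally verified). Each has no intron and lies inside a longer gene on its own strand. The libraries are of total RNA, and the longer genes were counted on exons. Whether these reads come from separate transcripts or from unspliced RNA of the longer gene was not tested. Gm47075 (chr13:93312041-93314055) and Gm47088 (chr13:93317427-93319065) lie inside Homer1, a postsynaptic scaffold gene with a short activity-induced form. Gm47075 held 63.3, 48.7 and 54.4 normalized counts in PTZ0 and 172, 190 and 180 in PTZ45, a log2 fold change of 1.72 ± 0.20 (adjusted p = 6.24e-13). Gm47088 held 36.5, 20.1 and 17.4 against 94.6, 109 and 125, a log2 fold change of 2.19 ± 0.30 (adjusted p = 6.82e-10). Counts of Homer1 itself were 2643, 2980 and 2604 in PTZ0 and 3117, 2818 and 2971 in PTZ45 and overlapped (0.11 ± 0.08, adjusted p = 1). C630044B11Rik (chr13:58812153-58814363) lies inside Ntrk2, the BDNF receptor gene, and held 58.4, 25.8 and 63.1 against 131, 121 and 96.7, a log2 fold change of 1.25 ± 0.28 (adjusted p = 0.0143). Ntrk2 itself had a log2 fold change of -0.002 ± 0.06. The C630044B11Rik call was lost without PTZ0 replicate 2 (adjusted p = 0.274), PTZ45 replicate 1 (0.574) or PTZ45 replicate 2 (0.309).

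Ccn1 and Apold1 were the 2 members called among 10 vascular stimulus-response genes, against 0.0607% of all genes called higher, and 0 were called without the libraries high in choroid plexus markers. Ccn1, a secreted matricellular protein, held 29.2, 17.2 and 18.9 normalized counts in PTZ0 and 29.4, 65 and 125 in PTZ45 (chr3:145646976-145649981). PTZ45 replicate 1 lay level with the highest PTZ0 library and the increase came from the other two PTZ45 libraries. Its log2 fold change was 1.76 ± 0.42 (adjusted p = 0.0358), and the call was lost without PTZ0 replicate 2 (adjusted p = 0.342), PTZ0 replicate 3 (1), PTZ45 replicate 2 (0.225) or PTZ45 replicate 3 (1). Apold1, an endothelial early-response gene, held 49.9, 42 and 38.6 against 77.8, 107 and 170, a log2 fold change of 1.45 ± 0.29 (adjusted p = 0.00105). Without PTZ0 replicate 3 the adjusted p was 0.0733 and without PTZ45 replicate 3 it was 0.39. Klf2, a flow-responsive endothelial factor, held 18.3, 32.5 and 33.1 against 31.5, 48 and 69.6 and did not pass (0.81 ± 0.37, adjusted p = 1). The summed level of 11 endothelial markers was 2868 to 3392 normalized counts in PTZ0 and 2878 to 3281 in PTZ45, overlapping ranges.

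The remaining higher genes were mt-Rnr1 and Mir6236. mt-Rnr1, the mitochondrial 12S ribosomal RNA, held 92010, 99720 and 87900 normalized counts in PTZ0 and 114900, 109000 and 114700 in PTZ45, a log2 fold change of 0.28 ± 0.06 (adjusted p = 0.0212). The mt-Rnr1 call was lost without PTZ0 replicate 1 (adjusted p = 0.445), PTZ0 replicate 3 (0.78), PTZ45 replicate 1 (0.421), PTZ45 replicate 2 (0.0743) or PTZ45 replicate 3 (0.167), and also after a correction for GC content (1). In CBP-ifKO mice that were never kindled and received saline, sequenced in lane 4, mt-Rnr1 held 140700, 117700 and 100300, of which the first and second lie above every PTZ45 library. The share of counts on genes annotated as ribosomal RNA, which mt-Rnr1 enters, was 4.88, 5.82 and 5.09% in PTZ0 and 6.53, 5.83 and 6.57% in PTZ45, and its part in the result was not tested. Of 13 protein-coding mitochondrial genes listed, 7 were tested and 0 were called, with 1 at an unadjusted p under 0.05 (mt-Nd1, which passed without PTZ0 replicate 2, adjusted p = 0.000523). Mir6236 is annotated as a microRNA hairpin at chr9:110281287-110281409, and its reads come from total RNA rather than from a small RNA library. The counts do not tell whether these reads come from this hairpin or from a repeated sequence such as ribosomal RNA, so its level is uncertain. It held 878, 878 and 906 in PTZ0 and 1304, 1501 and 1084 in PTZ45, a log2 fold change of 0.55 ± 0.11 (adjusted p = 0.00105), which was lost without PTZ45 replicate 2 (0.123). It held 1655, 1440 and 1961 in the never-kindled CBP-ifKO mice, within or above the range of PTZ45.

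The 7 lower genes were a ribosomal protein, a convertase inhibitor, 3 other protein-coding genes and 2 noncoding models. Rplp1, an acidic protein of the large ribosomal subunit, fell from 1399, 1373 and 1072 normalized counts in PTZ0 to 814, 863 and 954 in PTZ45, a log2 fold change of -0.55 ± 0.11 (adjusted p = 0.00105). Its call was lost without PTZ0 replicate 1 (adjusted p = 0.111), PTZ0 replicate 2 (0.0636) or PTZ45 replicate 1 (0.0772). Pcsk1n, which encodes proSAAS, an inhibitor of prohormone convertase 1, fell from 224, 233 and 193 to 118, 98 and 142, a log2 fold change of -0.87 ± 0.18 (adjusted p = 0.0027). That call was lost without PTZ0 replicate 1 (0.113), PTZ0 replicate 2 (0.138), PTZ45 replicate 1 (0.0753) or PTZ45 replicate 2 (0.208). Exons of Eras overlap Pcsk1n on the other strand, and exons of 2310011J03Rik overlap Apc2.

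Apc2, a neuronal relative of the tumour suppressor APC, fell from 1478, 1179 and 1146 to 934, 969 and 858 (-0.46 ± 0.10, adjusted p = 0.0151). Tnrc18 fell from 986, 777 and 889 to 650, 674 and 571 (-0.48 ± 0.11, adjusted p = 0.0147). Abhd8, an abhydrolase-domain gene, fell from 1006, 1029 and 855 to 726, 639 and 738 (-0.46 ± 0.10, adjusted p = 0.0126). These 3 are GC-rich genes, with exonic GC of 60.5%, 61.7% and 57.1%, and none was called after the GC correction (adjusted p = 1 for Apc2 and Tnrc18 and 0.739 for Abhd8). Rplp1 and Pcsk1n, with a GC content of 57.3% each, kept their call after it (adjusted p = 0.0267 each). Across 13020 genes the log2 fold change fell with exonic GC content, with a Spearman coefficient of -0.46 over genes that share the same 6 libraries. The median GC content was 57.3% in the 7 lower genes, 51.2% in the 16 higher genes and 49% over those genes. Each of the 3 also lost its call without some single libraries. The adjusted p of Apc2 was 0.761, 0.131 and 0.301 without PTZ0 replicate 1, PTZ45 replicate 1 and PTZ45 replicate 3. For Tnrc18 it was 0.761, 0.303, 0.104 and 0.372 without PTZ0 replicates 1 and 3 and PTZ45 replicates 1 and 3. For Abhd8 it was 0.445, 0.262, 0.078 and 0.391 without PTZ0 replicates 1 and 2 and PTZ45 replicates 1 and 2.

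Gm45104 and Gm15920 are low transcripts with the largest decreases. Gm45104, a TEC gene at chr7:18396516-18400865, held 30.4, 52.5 and 45.7 normalized counts in PTZ0 and 2.1, 7 and 4.72 in PTZ45, a log2 fold change of -3.22 ± 0.55 (adjusted p = 2.1e-05). Its call held without each library in turn. It was lost when all 17 libraries were fitted together (adjusted p = 0.833) and without the libraries high in choroid plexus markers (0.0615). Gm15920, a processed pseudogene at chr5:130188395-130188796 inside Rabgef1, held 6.09, 51.5 and 45 against 1.05, 2 and 5.89, and the lowest PTZ0 library lay just above the highest PTZ45 library. Its log2 fold change was -3.57 ± 0.77 (adjusted p = 0.00575), and was not called without PTZ0 replicate 2 (0.339), PTZ0 replicate 3 (0.304), PTZ45 replicate 1 (0.131) or PTZ45 replicate 2 (1). A processed pseudogene can share reads with its parent gene, so its counts are uncertain.

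**Figure D2:**
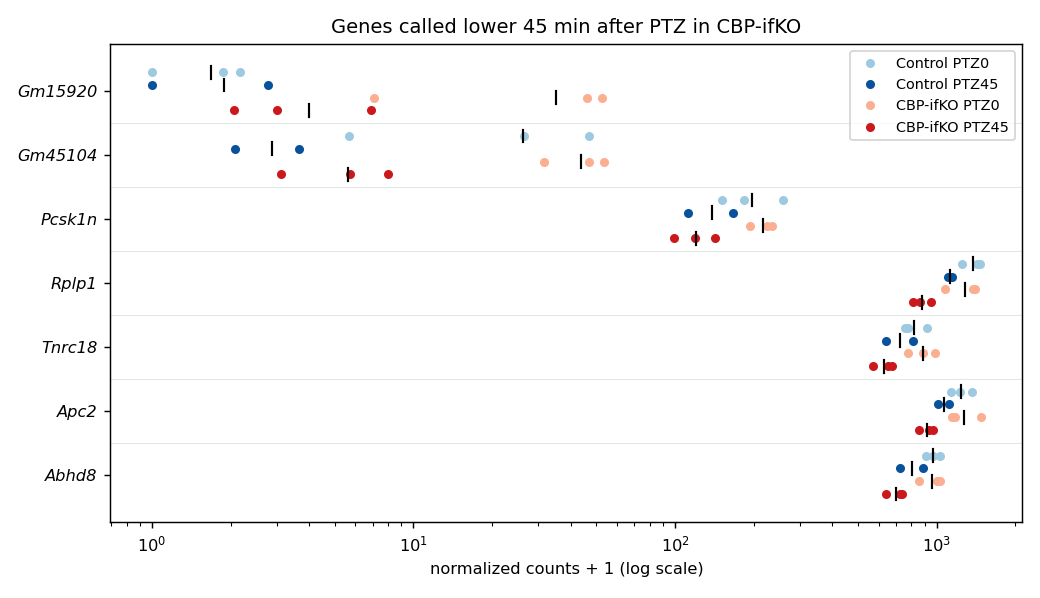
Normalized counts plus 1 of the 7 genes called lower in CBP-ifKO PTZ45, on a log scale, with a point for each library and a tick for each group mean, beside the Control PTZ0 and PTZ45 libraries. The normalized counts of Gm45104 are 30.4 to 52.5 in CBP-ifKO PTZ0 and 2.1 to 7 in PTZ45, whereas Rplp1, Apc2, Tnrc18 and Abhd8 differ by less than 1 on the log2 scale.

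The PTZ45 libraries differed in the size of the response. Over the 16 higher genes, the median log2 ratio to the PTZ0 mean was 1.01 in PTZ45 replicate 1, 1.4 in replicate 2 and 1.69 in replicate 3. Replicate 3 held the highest value in 11 of the 16 genes and replicate 1 the lowest in 11.

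Kindled controls were compared in the same way to show how large these responses are. Control PTZ45 against PTZ0 gave 213 genes higher (1.18% of 17982 tested) and 12 lower (0.0667%). These counts were 131 and 2 without Control PTZ0 replicate 1 and 350 and 149 without Control PTZ45 replicate 1, and 2 were lower without Control PTZ0 replicate 3. Without Control PTZ0 replicate 2, the control library high in choroid plexus markers, they were 144 and 8. In CBP-ifKO the same 213 genes had a median log2 fold change of 0.17, against 0.78 in controls, whose values chose them. Above 0 in CBP-ifKO were 187 of them (87.8%, against 50.2% of all genes), and in 68 every CBP-ifKO PTZ45 library lay above every PTZ0 library (31.9%, against 4.66%). An unadjusted p under 0.05 with a higher level in CBP-ifKO PTZ45 was reached by 50 of the 213, against 0.724% of all genes tested. Of the 82 control genes that changed at least 2-fold upward, 15 did so in CBP-ifKO, with median log2 fold changes of 1.88 in controls and 0.36 in CBP-ifKO. The called lists shared 15 genes, which are 93.8% of the 16 in CBP-ifKO and 7.04% of the 213 in controls, and Mir6236 was the exception (0.84 ± 0.27 in controls, adjusted p = 0.109). Mir6236 did pass in controls under 3 of 13 alternatives. Without the libraries high in choroid plexus markers in either genotype, all 7 genes then called higher in CBP-ifKO were shared. Among lower genes Gm45104 was shared, 14.3% of the 7 in CBP-ifKO and 8.33% of the 12 in controls, and 0 were shared without the libraries high in choroid plexus markers. The control call of Gm45104 (-3.73 ± 0.99, adjusted p = 0.0161) was lost in 5 of 10 alternatives, among them the fits without Control PTZ0 replicate 1 (0.247) and without Control PTZ45 replicate 2 (1).

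The difference between the responses was tested as the genotype by injection interaction over the 11 kindled libraries. It was negative, a smaller or more negative response in CBP-ifKO, for 82 genes (0.423% of 19370 tested) and positive for 0, with 209 genes positive at an unadjusted p under 0.05 and 0 called positive by edgeR. Without Control PTZ45 replicate 1, 50 were negative, and without the 3 libraries high in choroid plexus markers, which include Control PTZ0 replicate 2, 49 were. Of the 16 genes called higher in CBP-ifKO, 13 had a negative interaction, and 11 without those 3 libraries. Of 7 protein-coding mitochondrial genes tested, 4 had a negative interaction, against 0.423% of all genes tested. In controls 5 of 7 tested were called higher, against 1.18% of all genes tested. Lane differs between the control groups and not between the CBP-ifKO groups, so lane and the control response cannot be told apart. Seizure behaviour was scored in the study and is not analysed here, and equal seizures in the genotypes are not assumed, so a difference in seizures and a difference in the transcriptional response to them cannot be told apart. In a bulk library, fewer responding cells and less RNA per cell cannot be told apart either.

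Fos reached 2915 and 2483 normalized counts in Control PTZ45, from 23.7, 31.6 and 24.8 in Control PTZ0, a log2 fold change of 6.68 ± 0.19. The mean CBP-ifKO PTZ45 level was 8.65% of the control one, and the interaction was -2.65 ± 0.34 (adjusted p = 3.16e-12). Npas4 reached 3946 and 3293 in Control PTZ45 and the CBP-ifKO mean was 4.38% of this level (interaction -3.71 ± 0.67, adjusted p = 1.85e-05). Fosb showed the largest interaction of those named, -5.08 ± 0.44 (adjusted p = 2.71e-27), with 2154 and 1633 in Control PTZ45 and a CBP-ifKO mean at 3.11% of that level. In PTZ0 the same 3 genes stood at 53.1%, 57.6% and 105% of the control mean.

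Egr1 and Dusp1 reached a larger share of the control level. Egr1 held 1854 and 1474 in Control PTZ45, and its CBP-ifKO mean was 32.8% of that (interaction -1.62 ± 0.17, adjusted p = 1.26e-17). Dusp1 reached 680 and 617, and its CBP-ifKO mean was 29.3% of that (interaction -1.05 ± 0.26, adjusted p = 0.0184). The Dusp1 interaction did not pass in 11 of 19 alternatives, among them edgeR (adjusted p = 0.133), the fit without the libraries high in choroid plexus markers (0.0723) and some of the fits that left out 1 library. The libraries left out in those were Control PTZ45 replicate 1 (adjusted p = 0.574) and 2 (0.103), Control PTZ0 replicate 1 (0.212) and 3 (0.0787), PTZ45 replicate 1 of CBP-ifKO (0.155), and replicates 2 (0.0924) and 3 (0.0817) of its PTZ0 group. Btg2 reached 3391 and 3032, with a CBP-ifKO mean at 10.4% (interaction -2.78 ± 0.19, adjusted p = 3.54e-43). The starting levels differed too, since in PTZ0 Egr1, Dusp1 and Btg2 stood at 101%, 60.2% and 71.1% of the control mean. For Gadd45g (562 and 469 in Control PTZ45) and Arl4d (912 and 710) the interactions were -3.29 ± 0.31 (adjusted p = 1.29e-22) and -3.36 ± 0.30 (adjusted p = 1.13e-25). Arc reached 4921 and 4272, with an interaction of -1.99 ± 0.29 (adjusted p = 4.7e-09).

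The gene models inside Homer1 also reached lower levels in CBP-ifKO. Gm47075 held 1258 and 1020 in Control PTZ45, with a CBP-ifKO mean at 15.9% of that (interaction -2.81 ± 0.25, adjusted p = 9.02e-27), and Gm47088 held 644 and 498 (19.2%, interaction -2.15 ± 0.34, adjusted p = 2.41e-07). Homer1 itself passed in controls (0.41 ± 0.07, adjusted p = 1.78e-06), and its interaction of -0.29 ± 0.11 did not pass (adjusted p = 0.691).

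The interaction did not pass for Ccn1, Apold1 and Mir6236 among the higher genes, nor for any of the 7 lower genes. Apold1 held 217 and 176 in Control PTZ45 and its log2 fold change was 1.69 ± 0.24 in controls against 1.45 ± 0.29 in CBP-ifKO. The interaction was -0.25 ± 0.37, with a 95% interval from -0.98 to 0.49. Ccn1 held 234 and 214 in Control PTZ45, and its interaction of -1.46 ± 0.74 had an interval from -2.91 to -0.01 and an adjusted p of 1, and it passed without PTZ45 replicate 3 of CBP-ifKO (-2.07, adjusted p = 0.00337). For these genes the intervals leave room for responses of unlike size.

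**Figure D3:**
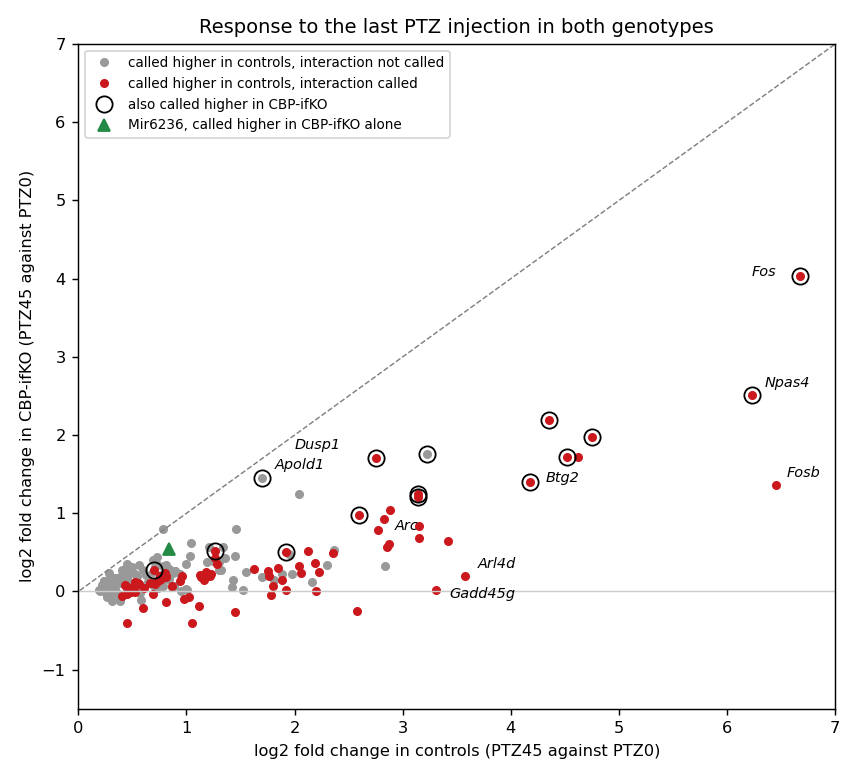
Log2 fold change of PTZ45 against PTZ0 in kindled controls (horizontal) and in CBP-ifKO (vertical) for the 213 genes called higher in controls and for Mir6236, with genes whose interaction passed in red, genes also called in CBP-ifKO circled and a dashed line of equal response. Fos lies at 6.68 and 4.03 and Fosb at 6.45 and 1.37, below the line, whereas Apold1 lies near it at 1.69 and 1.45.

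Other stimulus-linked groups are given by their medians, since at 0.0607% of all genes called higher and 0.0265% called lower, lists of this size would seldom hold a called gene. Late-response genes had a median log2 fold change of 0.07 over 18 tested, with 0 called by DESeq2 or edgeR and 1 higher at an unadjusted p under 0.05 (0.724% of all genes tested). Bdnf, the neurotrophin gene, held 329, 352 and 297 normalized counts in PTZ0 and 398, 394 and 358 in PTZ45, apart but not called (0.24 ± 0.12, adjusted p = 1). Nptx2, a neuronal pentraxin that clusters AMPA receptors, held 46.3, 57.3 and 48.1 against 73.6, 55 and 73.1 and overlapped (0.41 ± 0.27). The one late gene under an unadjusted p of 0.05 was Npy, the neuropeptide Y gene, with a log2 fold change of 0.34.

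Over 15 GABA-A receptor subunits, the targets of PTZ, the median was 0.04, and 0 were called by DESeq2 or edgeR. In this and the following lists the calls and the unadjusted p stand against 0.0607% called higher, 0.0265% called lower and 2.12% with an unadjusted p under 0.05 over all genes, and counts of 0 or 1 do not set them apart from that background. Gabra3 alone had an unadjusted p under 0.05 (0.27). The 17 CREB pathway genes had a median of 0.02 and 0 called, with 0 at an unadjusted p under 0.05 and 0 by edgeR. Over the 12 SRF pathway genes the median was -0.01, 0 were called by either tool and 1, the coactivator Mrtfa, was lower at an unadjusted p under 0.05 (-0.32). Glucocorticoid and stress genes (12 tested, median -0.03) and heat shock genes (10 tested, median -0.003) had 0 called by either tool and 0 at an unadjusted p under 0.05.

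Markers of the cell types in the tissue were compared to show whether composition moved with the injection. Over 9 lists, 77 marker genes were tested, 0 were called by DESeq2 or edgeR and 7 had an unadjusted p under 0.05, against 2.12% of all genes tested. That share and the 0.724% below include genes of low counts, and no share matched in expression was computed. Oligodendrocyte markers were the list with the highest median, 0.22, with all 9 genes above 0, 5 of them at an unadjusted p under 0.05 and higher (0.724% over all genes tested), and summed levels of 29780 to 37950 normalized counts in PTZ0 and 35090 to 40310 in PTZ45. Opalin, a myelin paranode gene, was the member whose groups did not overlap (172, 169 and 158 against 224, 186 and 232). Dentate granule cell markers had the lowest median, -0.14, with summed levels of 5517 to 6090 in PTZ0 and 4620 to 5781 in PTZ45. Medians lay between these for endothelial (0.04), mural (-0.06), astrocyte (0.04), microglia (0.02), interneuron (0.01), CA1 pyramidal (-0.05) and CA3 pyramidal (-0.003) markers. The part of oligodendrocyte or granule cell content in the results above was not tested.

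**Figure D4:**
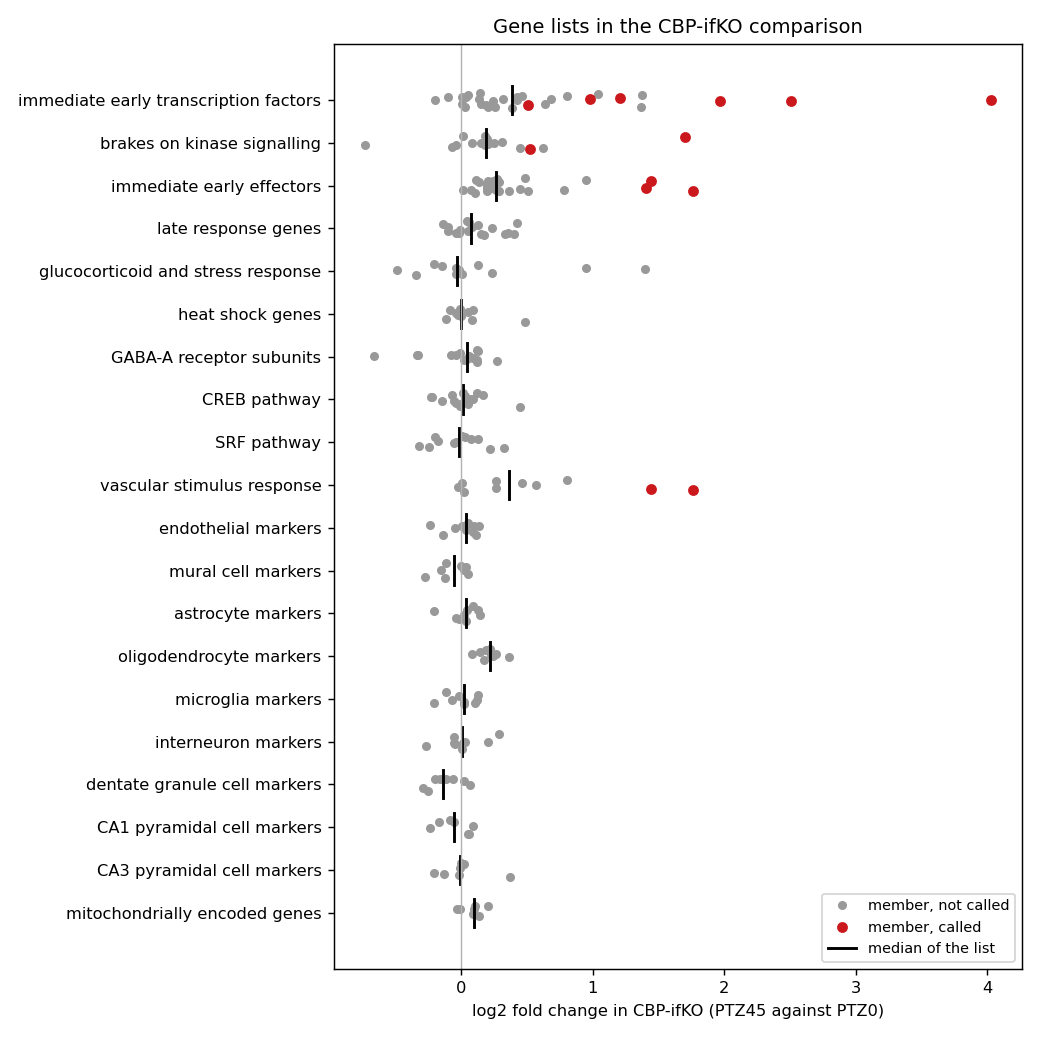
Log2 fold change of PTZ45 against PTZ0 in CBP-ifKO for every tested member of the 20 lists with at least 5 tested members, with each list's median. The lists of immediate-early transcription factors (median 0.39), vascular stimulus-response genes (0.37) and immediate-early effectors (0.27) lie highest, and the cell-type marker lists lie between -0.14 and 0.22.

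How many genes were called depended on which libraries and tool were used, and 7 genes were called higher under all 14 alternatives. These are Fos, Gm47088, Gm47075, Dusp1, Btg2, Nr4a1 and Egr1, and they were also the 7 called higher without the libraries high in choroid plexus markers, where 2 libraries a group remained (89 genes were higher and 207 lower at an unadjusted p under 0.05). Without those libraries Rplp1 was the 1 gene called lower. edgeR called the same 7 genes and Npas4 higher, and Gm45104 lower. No gene was called lower under all 14 alternatives. In 1 fit of all 17 libraries, Gm45104 (adjusted p = 0.833), Gm15920 (1), Tnrc18 (0.295), Abhd8 (0.185), Mir6236 (1) and mt-Rnr1 (1) lost their call.

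**Figure D5:**
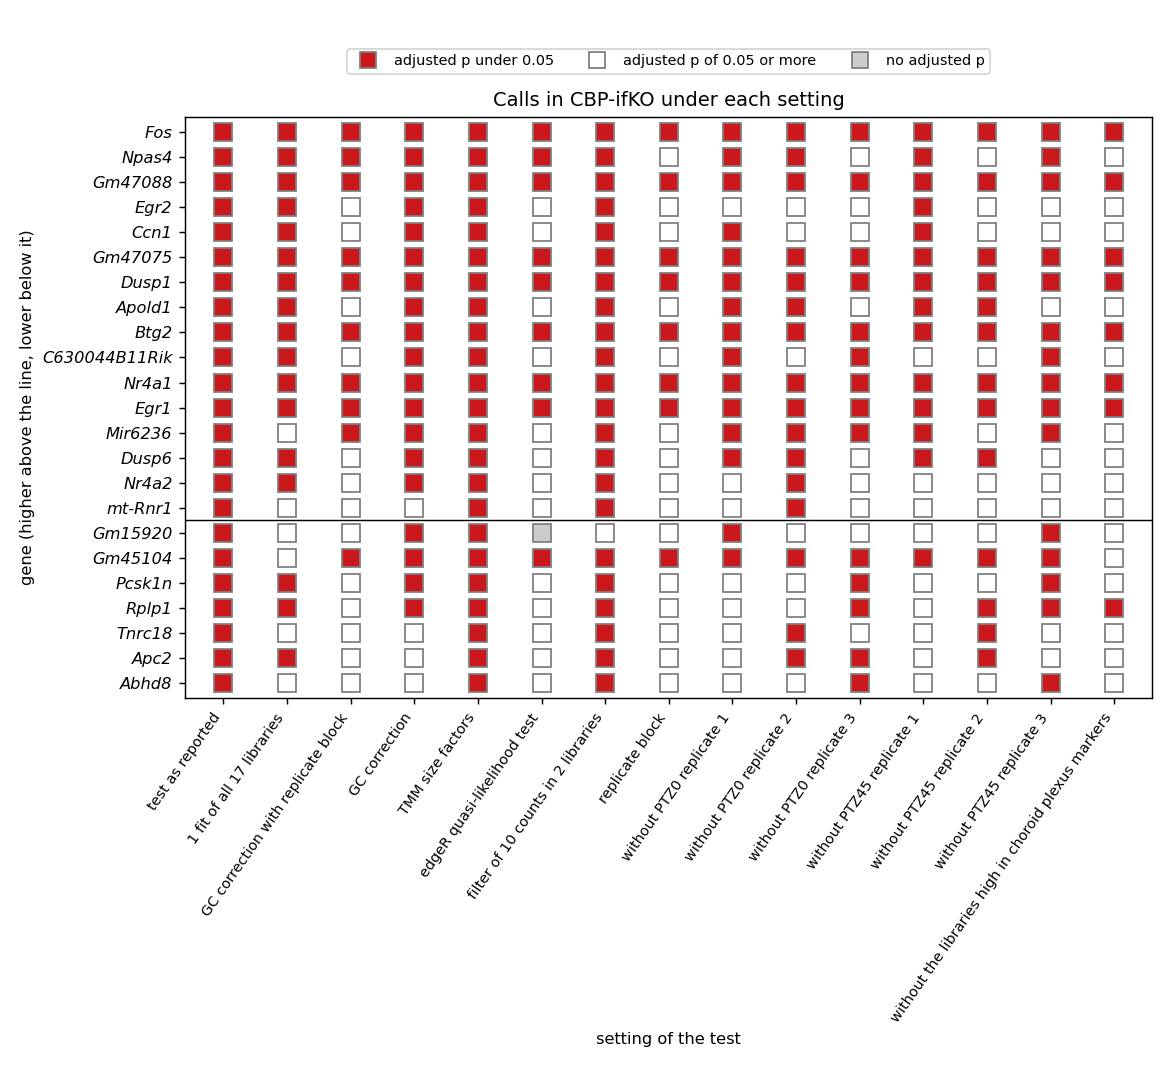
Calls of the 23 genes under the test as reported and 14 alternatives, with a filled cell where the adjusted p was under 0.05. Fos, Gm47088, Gm47075, Dusp1, Btg2, Nr4a1 and Egr1 are filled throughout, whereas mt-Rnr1 is lost in 11 alternatives.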

How the data were processed

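Total RNA from mouse hippocampus was sequenced as single-end reads of 50 bases. The authors deposited whole-number read counts for each gene, without normalization. Per the submitters' processing notes and the methods, reads were checked with FastQC 0.11.8, trimmed with Trim Galore 0.6.4, aligned to GRCm38 with STAR 2.6.1, filtered on mapping quality and counted on Ensembl exons with Rsubread. Whether counting used the strand is not given in the sources used here, so values of overlapping genes of opposite strand are uncertain, as are those of genes with near-identical copies. Of 18 count columns, 17 matched a sample and 1, named like the libraries of Control PTZ45 (the group with 2 samples), was not used. Of 55471 gene identifiers, 99.57% were found in GENCODE M21 of GRCm38, which gave symbols, positions and exonic GC content, and 39260 genes had at least 1 count.

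Groups came from the labels. Each pair of groups was fitted alone with the two-sided Wald test of DESeq2 1.42.0 (R 4.3.3), the test named in the methods, and the interaction was fitted on the 11 libraries of kindled mice. Genes passed at a Benjamini-Hochberg adjusted p under 0.05 after independent filtering. Named genes are those called in CBP-ifKO, genes the study discusses, up to 8 per direction with the largest change in controls and in the interaction where the mean reached 50 normalized counts, and the 3 members of each list with the lowest p. Junb, Egr3, Nr4a3, Ptgs2 and Rgs2 were chosen after their values were seen. The members and gene lists were chosen with earlier results of these data known. Lists are described by counts and medians, with no test over a list.

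Alternatives were edgeR 4.0.16 with its quasi-likelihood test, TMM size factors, a filter of 10 counts in 2 libraries, 1 fit of all 17 libraries, the replicate number as a block, a loess correction for GC content, that correction with the block, and each library left out in turn. A fit without libraries whose choroid plexus markers summed to over 10000 normalized counts was added after seeing the data. Chi-square values per degree of freedom between libraries of a group ran from 5.37 to 8.35 within CBP-ifKO PTZ0 and PTZ45, so no pair within these groups agreed within sampling noise. Scripts were tested on simulated data with known changes.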

Additional observations from a re-analysis of the deposited data

Results flagged for a closer look

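The response to the last PTZ injection differed between kindled CBP-ifKO mice and kindled controls for 82 genes, all with a smaller or more negative response in CBP-ifKO, by the interaction term of DESeq2. Lane differs between the control groups, and its part was not tested. Among transcription factors, the interaction on the log2 scale was -5.082 for Fosb, -3.711 for Npas4, -2.787 for Egr2, -2.772 for Egr4, -2.652 for Fos, -2.462 for Junb, -1.932 for Nr4a1, -1.734 for Egr3, -1.618 for Egr1 and -1.411 for Nr4a2. Among effectors and signalling brakes it was -3.364 for Arl4d, -3.289 for Gadd45g, -2.777 for Btg2, -1.993 for Arc, -1.825 for Ptgs2, -1.56 for Rgs2, -1.049 for Dusp1 and -0.7386 for Dusp6. Among noncoding transcripts it was -2.87 for 1700016P03Rik, -2.806 for Gm47075, -2.147 for Gm47088, -1.891 for C630044B11Rik and -0.4273 for mt-Rnr1. Not all of these held under the 19 alternatives. The adjusted p missed the threshold in 11 for Dusp1 (up to 0.651), in 10 for mt-Rnr1 (up to 1), in 5 for 1700016P03Rik (up to 0.306), in 3 for Dusp6 (up to 0.202) and in 2 for C630044B11Rik (up to 0.0701). The losses without a single library were, for 1700016P03Rik, CBP-ifKO PTZ0 replicate 1 (0.306) and Control PTZ45 replicate 1 (0.123), for Dusp6, Control PTZ45 replicate 1 (0.0777), and for mt-Rnr1, CBP-ifKO PTZ0 replicate 2 (0.0758), CBP-ifKO PTZ45 replicate 2 (0.065), Control PTZ0 replicate 3 (0.0786) and Control PTZ45 replicate 2 (0.441). The interactions of the other genes named here passed under all 19 alternatives.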

How the results depend on the processing

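The number of genes changed by the last injection in CBP-ifKO was 23 as reported. It was 10 (9 higher, 1 lower) with the GC correction and replicate block, 9 (8 and 1) with edgeR, 8 (7 and 1) with the replicate block alone and 8 (7 and 1) without the libraries high in choroid plexus markers, where fewer samples remained. Lower genes numbered 4 in 1 fit of all 17 libraries, 4 with the GC correction and 12 with TMM size factors. Leaving out each library gave 16 to 23 genes, 9 to 17 higher and 3 to 12 lower. In controls (225, of which 213 higher and 12 lower) the replicate block gave 94 (91 and 3), the block with the GC correction 81 (79 and 2), edgeR 35 lower, the fit of all libraries 5 lower, and leaving out a library 133 to 499, 131 to 350 higher and 2 to 149 lower. The 82 negative interactions became 37 with the replicate block, 35 with the block and GC correction, 49 without the libraries high in choroid plexus markers and 50 to 79 without a library, where positive ones numbered 0 to 3. Beyond fewer samples, the cause was not tested. The replicate numbers did not pair the CBP-ifKO samples (correlations of same-numbered deviations 0.267, -0.499 and -0.367), and replicates 2 and 3 of PTZ0 correlated best with another number. No called value reversed. Of the values for named genes in CBP-ifKO under alternatives, 1298 stayed on their side of the threshold, 118 lost and 9 gained a call. Of the list medians under alternatives, 270 moved by less than the spread between replicates and 24 by more. At 9883310 to 14935438 counts a library, genes at a few counts, such as Gm45104 in PTZ45, are limited by counting.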

Other observations

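Gm45104 and Gm15920, the most strongly lowered transcripts, also varied within groups that received no last PTZ injection. Gm45104 held 1.56, 0 and 4.52 normalized counts in control mice that were never kindled and received saline, and 34, 0 and 37 in the CBP-ifKO mice treated likewise. In kindled controls it held 25.5, 4.68 and 45.7 after saline and 2.65 and 1.09 after PTZ. Gm15920 held 1.56, 2.46 and 57.9 in never-kindled controls, 2.56, 0 and 0.739 in never-kindled CBP-ifKO mice and 0 to 1.77 in all 5 kindled control libraries. Levels above 30 normalized counts were thus found in some libraries of a group and near 0 in others of the same group.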
